A study of Mus musculus with 30 samples.

Results

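Expression after 6 h with 1.5 µM cannabidiol (CBD), a non-intoxicating compound of the hemp plant, was compared with expression after 6 h with vehicle in mHypoA-2/12 cells. Members were taken by their treatment label: 3 libraries labelled CBD1.5_6h (A7, A8 and A9) and 3 labelled CTR_6h (A1, A2 and A3), which are 6 of the 30 libraries of the series, and every gene was considered. CBD1.5_6h stands for cells kept for 6 h in DMEM with GlutaMAX and 1.5 µM CBD, and CTR_6h for cells kept for 6 h in the same medium with vehicle. DMSO at 0.1% was present in both groups. The other groups used here were 0.325, 0.75 and 3 µM CBD at 6 h, and vehicle and 1.5 µM CBD at 24 h, with 3 libraries each. The groups of 0.325, 0.75 and 3 µM CBD at 24 h entered the fit of all 30 libraries, and are described for Elp6 alone. The cells are 1 mouse hypothalamic line made immortal with the SV40 large T antigen, and they were detached with trypsin before RNA was taken. Nothing states whether the 3 libraries of a group came from separate passages, so that p-values measure the spread between these libraries, which may be technical.

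Cells answer a change of medium or a stress within minutes to hours through layers of genes. Early-response genes such as Fos and Egr1 are switched on by growth factor signals through MAP kinases, and phosphatases such as Dusp1 then shut those kinases off. The integrated stress response slows protein synthesis and raises the factor ATF4, and Ppp1r15a, one of its products, lifts the block again. NRF2 drives Hmox1, the enzyme that degrades heme, and p53 drives Mdm2 and Cdkn1a. Metalloproteinases such as Mmp3 cut matrix proteins outside the cell, and Timp1 inhibits them.

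The labelled cell type was compared with defining markers. Of 12 neuronal markers, 5 passed the filter on low counts, and their summed level over all 12 was 153 to 187 CPM (read counts scaled to the size of each library, as counts per 1e6 reads on genes) in the vehicle libraries and 143 to 177 CPM at 1.5 µM. Tubb3, a neuronal tubulin, was at 43.4 to 59.7 CPM, whereas Dcx, a marker of young neurons, was at 0 reads. Of 3 neural progenitor markers, Nes had a log2 fold change of 0.61 (FDR = 0.110), Vim of -0.24 (FDR = 0.696) and Sox2 of -0.08 (FDR = 0.980), and their summed level was 2450 to 3530 CPM in vehicle and 2410 to 2580 CPM at 1.5 µM. Npy, Agrp, Pomc, Mc4r and Ghsr, which define feeding circuits, were at 0 reads in these 6 libraries. The summed level of 10 mesenchymal markers was 6010 to 7230 CPM in vehicle and 7090 to 8170 CPM at 1.5 µM. Acta2, the actin of smooth muscle, was at 1373 to 2193 CPM in vehicle and 2305 to 2992 CPM at 1.5 µM (unadjusted p = 0.00848, FDR = 0.425). Of the 9 tested, it was the 1 marker with an unadjusted p below 0.05. The others tested had log2 fold changes from -0.02 (Col1a1) to 0.325 (Thy1), so that the set as a whole was not raised. Of 7 glial markers Gfap, Aqp4, Olig2 and Mog were at 0 reads, the summed level of 4 endothelial markers was 0.791 to 3.75 CPM, and that of 5 microglial markers was 21.4 to 54 CPM. The part of the mesenchymal markers in the results was not tested.

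Reads on genes numbered 1839621 in A1, 1919498 in A2 and 3574833 in A3, and 2429400 to 2542865 at 1.5 µM. The vehicle library A3 stood apart. Its counts differed from those of A1 and A2 by a chi-square per gene of 11.6 and 10.4, against 2.16 between A1 and A2, 3.89 to 6.2 among the libraries of 1.5 µM, 3.35 to 6.79 between A1 or A2 and a library of 1.5 µM, and 8.7 to 13.6 between A3 and a library of 1.5 µM. A chi-square grows with depth, and A3 was the deepest of the 6. The SD of the log2 difference per gene was 0.716 and 0.703 between A3 and A1 or A2, 0.537 between A1 and A2, 0.538 to 0.579 among the libraries of 1.5 µM, 0.555 to 0.629 between A1 or A2 and a library of 1.5 µM, and 0.625 to 0.698 between A3 and these. It also had the lowest share of reads outside genes (17.9%, against 18.9% to 21.4% in the other 5), and values without it are given beside the genes that lost their call or turned direction.

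Between vehicle and 1.5 µM CBD, 12 genes passed the threshold of a false discovery rate (FDR) below 0.1 in the quasi-likelihood F-test of edgeR over 12012 genes. Of these, 7 rose, which is 0.0583% of the genes tested, and 5 fell (0.0416%). The genes that fell were the long non-coding RNA Zfas1, the small nuclear RNA Rn7sk, the interferon-inducible gene Mndal, the stress phosphatase subunit Ppp1r15a and the heme oxygenase Hmox1. The genes that rose were the metalloproteinase Mmp3 and its inhibitor Timp1, the interleukin receptor antagonist Il1rn, the melanocortin receptor Mc5r, the membrane raft protein Rftn1, Armcx3, and 1 gene without a symbol, given here by its Ensembl identifier (ENSMUSG00000120645). All 3 libraries of 1.5 µM lay above all vehicle libraries for 6% of the genes tested and below them for 5.61%, and all 12 genes were among these. An unadjusted p below 0.05 was found for 489 genes on the higher side (4.07%) and for 461 on the lower side (3.84%). The median log2 fold change over all genes was -0.01. The calls used the spread of all 15 libraries of 6 h: with only the 6 libraries compared 0 genes passed, and the 12 genes had FDR values from 0.112 to 0.509. The count of 12 also depended on single libraries: it was 15 without A1, 1 without A2 (Zfas1), 50 without A3, 0 without A7, 1 without A8 (Mmp3) and 0 without A9.

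**Figure D1:**
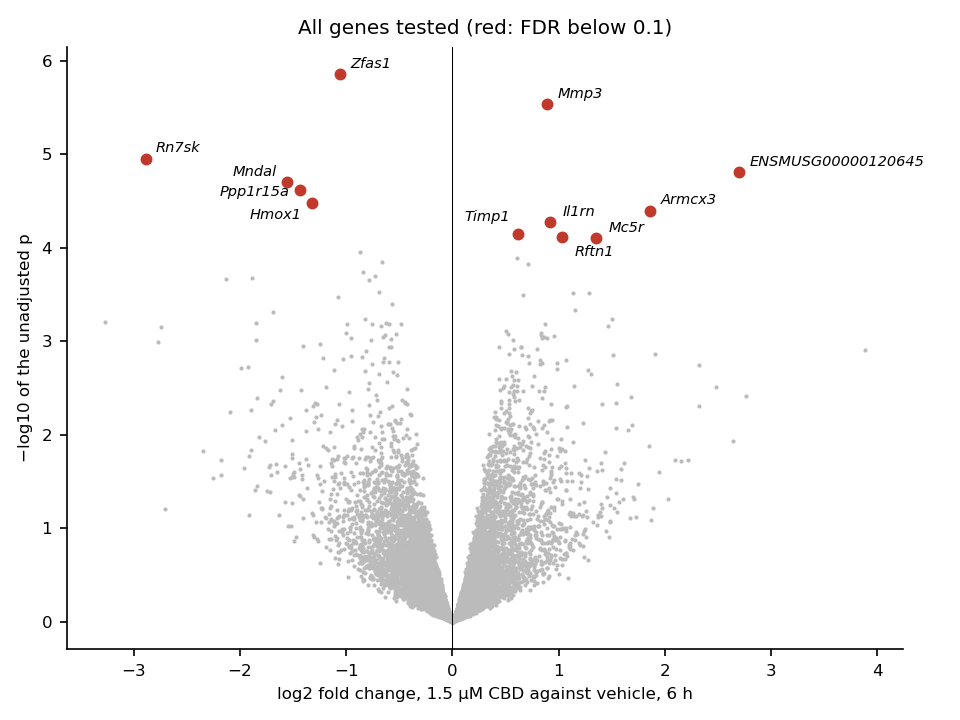
Each point is 1 of the 12012 genes tested, with the log2 fold change of 1.5 µM CBD against vehicle at 6 h on the x axis and -log10 of the unadjusted p on the y axis. The 12 genes in red passed an FDR below 0.1, with 7 on the right (higher with CBD) and 5 on the left.

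Zfas1, a host transcript of small nucleolar RNAs, was at 90.3, 94.5 and 128.5 CPM in vehicle and at 52.6, 50.7 and 47.9 CPM at 1.5 µM. All libraries of 1.5 µM lay below the lowest vehicle library, and the spread among them was small (50.4 ± 2.36 CPM, against 104.4 ± 21 CPM in vehicle, SD, n = 3). The fall was 2.09-fold (log2 fold change -1.06, standard error 0.17, edgeR FDR = 0.0168). The gene lies on chromosome 2 from 167062934 to 167065862 (GRCm38), beside the start of Znfx1 on the other strand, and use of strand in the counting was not stated. Znfx1 was at 31.4 ± 3.18 CPM in vehicle and 32.7 ± 0.839 CPM at 1.5 µM (SD, n = 3; edgeR FDR = 0.969).

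Ppp1r15a (chromosome 7, 45522916 to 45526268, GRCm38) was at 27.5, 30.1 and 43.4 CPM in vehicle and at 14.2, 11.8 and 11.7 CPM at 1.5 µM. The groups did not overlap, and the fall was 2.7-fold (log2 -1.43, standard error 0.28, FDR = 0.0477). Without A3, which held its highest level, the log2 fold change was -1.19 and the FDR was 0.114. Hmox1 (chromosome 8, 75093621 to 75100589) was at 87.0, 98.7 and 80.7 CPM in vehicle and at 27.3, 39.6 and 39.2 CPM at 1.5 µM. The vehicle libraries stood close together here, A3 included, and the fall was 2.5-fold (log2 -1.32, standard error 0.26, FDR = 0.0565, and 0.0132 without A3).

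Mndal and Rn7sk fell from levels that A1 and A2 shared and A3 did not. Mndal, of the family of interferon-inducible DNA sensors, was at 130.5 and 177.3 CPM in A1 and A2, at 42.6 CPM in A3, and at 36.0, 42.5 and 38.8 CPM at 1.5 µM. Its log2 fold change was -1.55 (standard error 0.30, FDR = 0.0474), and -1.97 without A3. Its annotated span on chromosome 1 overlaps that of the related gene Ifi203, so that its counts are uncertain. Rn7sk, the 7SK RNA that holds the elongation kinase P-TEFb inactive, was at 40.2, 47.0 and 6.87 CPM in vehicle and at 2.37, 5.72 and 4.17 CPM at 1.5 µM. These levels stand for 73, 89 and 25 reads in vehicle and for 6, 14 and 10 reads at 1.5 µM, and the log2 fold change was -2.89 (standard error 0.53, FDR = 0.0444), and -3.40 without A3. The 7SK RNA has many near-identical copies in the genome and lacks the tail of mRNA that priming of these libraries uses, so that its level is uncertain.

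Mmp3, stromelysin 1 (chromosome 9, 7445822 to 7455975), was at 454, 513 and 579 CPM in vehicle and at 1114, 740 and 1017 CPM at 1.5 µM. The lowest library with CBD lay above the highest with vehicle, and the rise was 1.85-fold (log2 0.89, standard error 0.15, FDR = 0.0175). Timp1, an inhibitor of metalloproteinases (X chromosome, 20870166 to 20874735), was at 701, 730 and 812 CPM in vehicle and at 1082, 1031 and 1337 CPM at 1.5 µM. The rise of Timp1 was smaller, 1.54-fold (log2 0.62, standard error 0.13, FDR = 0.0795). Both genes rose more without A3, with log2 fold changes of 0.99 and 0.69.

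Il1rn, the antagonist of the interleukin-1 receptor (chromosome 2, 24336853 to 24351494), was at 45.7, 38.0 and 33.8 CPM in vehicle and at 72.8, 68.2 and 79.6 CPM at 1.5 µM, a rise of 1.9-fold (log2 0.92, standard error 0.19, FDR = 0.0711). Mc5r, a melanocortin receptor, was at 39.1, 21.1 and 17 CPM in vehicle and at 52.2, 59.7 and 79.6 CPM at 1.5 µM (log2 1.35, standard error 0.29, FDR = 0.0795). Rftn1 was at 28.6, 23.2 and 15.1 CPM in vehicle and at 48.7, 38.4 and 45.9 CPM at 1.5 µM (log2 1.03, standard error 0.22, FDR = 0.0795). In these 3 genes A3 was the lowest vehicle library, and without it their FDR lay between 0.106 and 0.174. Armcx3, a protein of the outer mitochondrial membrane, was at 6.61, 5.28 and 3.57 CPM in vehicle and at 13.5, 17.2 and 23.8 CPM at 1.5 µM, which is 10 to 13 reads against 34 to 57 (log2 1.86, standard error 0.38, FDR = 0.0600). A3 was its lowest vehicle library too, and without it the log2 fold change was 1.6 and the FDR 0.114. The gene without a symbol was at 2 to 5 reads in vehicle and 18 to 23 reads at 1.5 µM (log2 2.7, standard error 0.51, FDR = 0.0462). The low counts of both limit their precision.

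**Figure D2:**
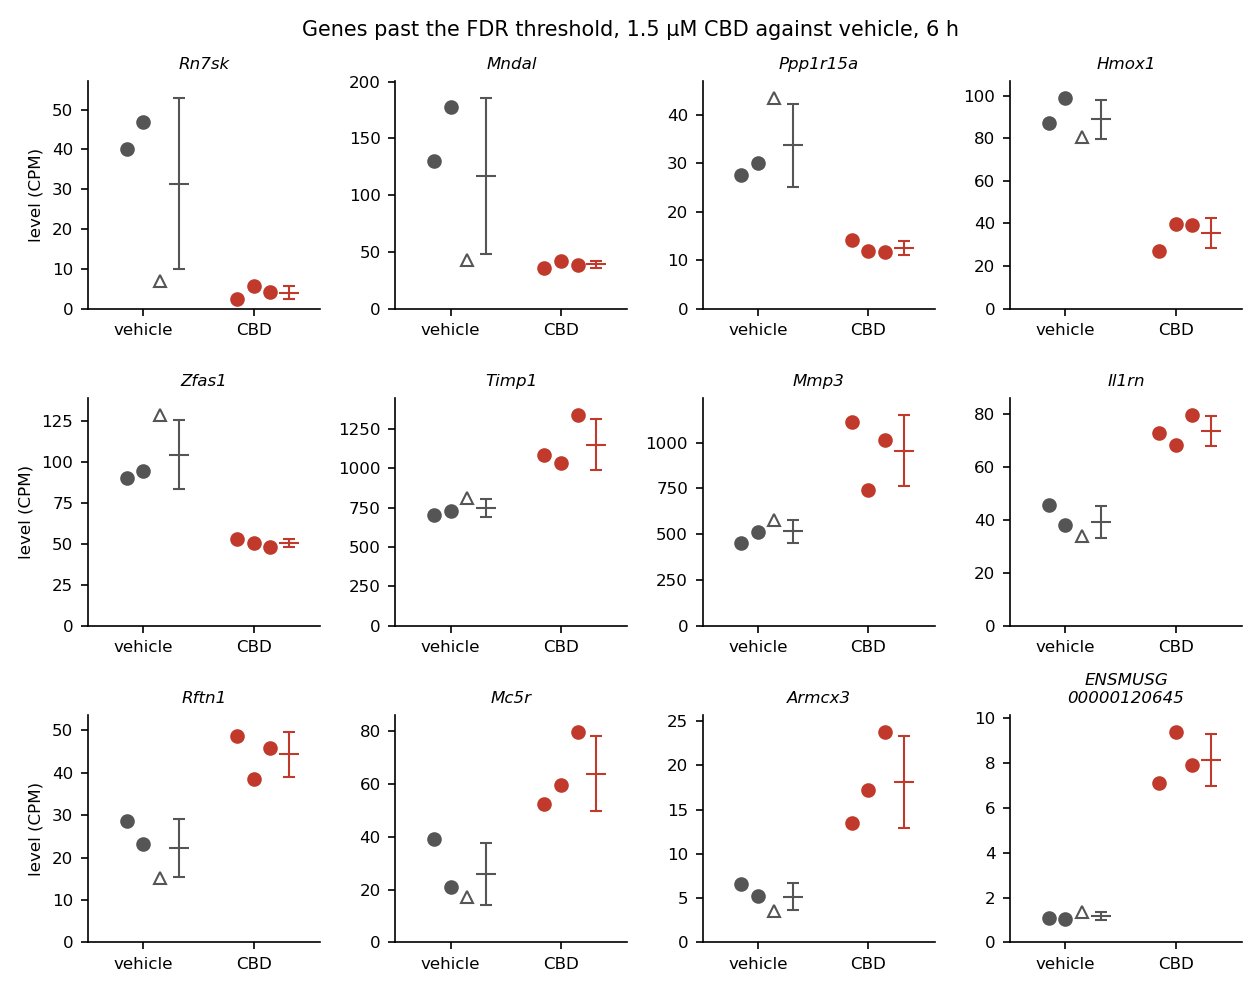
Levels in CPM (y axis from 0) of the 12 genes past the threshold in the 3 vehicle libraries (grey) and the 3 libraries of 1.5 µM CBD (red) at 6 h, with the vehicle library A3 as an open triangle and the mean ± SD beside each group. The groups do not overlap in any panel, which the choice of these genes by p favours, and A3 lies next to the CBD libraries for Rn7sk and Mndal.

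Promoter windows of 250 bases before the start were read for genes past the threshold (RefSeq, GRCm38.p6), and 7 of the 12 genes had an entry. The windows of Mmp3 and Il1rn, which rose, of Ppp1r15a and Mndal, which fell, and of Dusp1, whose change differed between times, are shown. Each holds a match to a site of AP-1 factors or of ATF and CREB factors. The genes of the AP-1 factors are described after the early-response genes. Capitals mark matches on either strand to the AP-1 site (TGANTCA), the CRE (TGACGTCA), the NRF2 and Maf site (TGANNNNGC), the ATF4 site (TGATGNAA) and the TATA box (TATAAA). No match overlaps another in the windows printed, and Il1rn has 2 further starts whose windows hold none of these sites. Mndal has 1 further start, whose window holds an AP-1 site.
Mmp3, chr9:7445572-7445821, plus strand: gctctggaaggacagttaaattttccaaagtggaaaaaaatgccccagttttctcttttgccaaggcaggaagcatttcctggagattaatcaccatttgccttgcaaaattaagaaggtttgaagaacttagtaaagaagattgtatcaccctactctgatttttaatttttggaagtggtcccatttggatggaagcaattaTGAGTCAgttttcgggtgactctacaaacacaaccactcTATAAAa
Il1rn, chr2:24336610-24336859, plus strand: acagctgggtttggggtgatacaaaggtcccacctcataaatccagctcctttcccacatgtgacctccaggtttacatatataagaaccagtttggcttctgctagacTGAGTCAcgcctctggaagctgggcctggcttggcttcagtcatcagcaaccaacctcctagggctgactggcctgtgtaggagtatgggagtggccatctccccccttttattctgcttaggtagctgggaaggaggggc
Ppp1r15a, chr7:45526269-45526518, minus strand: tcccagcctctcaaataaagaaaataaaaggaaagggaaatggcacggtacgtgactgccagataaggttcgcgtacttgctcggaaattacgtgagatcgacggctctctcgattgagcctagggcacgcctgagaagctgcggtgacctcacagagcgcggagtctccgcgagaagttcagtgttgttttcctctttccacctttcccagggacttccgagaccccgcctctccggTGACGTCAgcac
Mndal, chr1:173879959-173880208, minus strand: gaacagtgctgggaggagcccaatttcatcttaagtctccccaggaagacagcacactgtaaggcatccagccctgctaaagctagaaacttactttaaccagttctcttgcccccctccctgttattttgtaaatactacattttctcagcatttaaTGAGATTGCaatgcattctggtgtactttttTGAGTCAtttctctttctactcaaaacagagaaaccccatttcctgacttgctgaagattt
Dusp1, chr17:26508473-26508722, minus strand: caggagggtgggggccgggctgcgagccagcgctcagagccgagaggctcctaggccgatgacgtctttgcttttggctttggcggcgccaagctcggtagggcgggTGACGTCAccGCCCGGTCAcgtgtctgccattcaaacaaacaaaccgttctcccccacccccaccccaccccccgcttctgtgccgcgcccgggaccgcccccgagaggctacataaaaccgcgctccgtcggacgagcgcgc

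Over 32817 such windows, the AP-1 site was in 6.75%, the CRE in 1.55%, the NRF2 and Maf site in 35.2%, the ATF4 site in 3.45% and the TATA box in 12.4%. Of the 7 genes past the threshold with an entry, 3 held an AP-1 site (Mmp3, Mndal and Il1rn), 1 a CRE (Ppp1r15a), 2 the NRF2 and Maf site (Zfas1 and Mndal), 1 a TATA box (Mmp3) and 0 the ATF4 site. These genes have 10 windows, and per window the AP-1 site was in 4, the CRE in 1, the NRF2 and Maf site in 2 and the TATA box in 1. Mmp3 held its AP-1 site and its TATA box together, and the CRE of Ppp1r15a lay next to the start. A match is a description of these letters and not of binding.

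The next 18 genes by p did not pass the threshold, with FDR values from 0.103 to 0.199. For all 18 the groups did not overlap, which a choice by p favours and which adds no support. Over all genes tested, 6% lay without overlap on the higher side and 5.61% on the lower side. Lower at 1.5 µM were Ndrg1, a gene of hypoxia and stress (126.7, 170.4 and 98.6 CPM against 67.7, 78.5 and 68.4 CPM, log2 -0.87), the autophagy receptor Sqstm1 (log2 -0.66), the choline kinase Chka (44.1, 44.3 and 50.3 CPM against 21.8, 23.7 and 32.5 CPM, log2 -0.84), Mdm2 (log2 -0.72) and the lipid droplet coat Plin2 (log2 -0.78). Noct, Gm42679, Ifrd1, the Notch target Hes1, Klf6, the carbonic anhydrase Car6 and Fos were lower as well, with log2 values of -1.89, -2.13, -0.69, -1.08, -0.57, -1.68 and -0.82. A3 held the highest vehicle level of Noct, Gm42679 and Hes1, and without it their log2 values were -1.29, -1.29 and -0.695 (FDR = 0.339, 0.389 and 0.293). Without A3, Ndrg1, Sqstm1, Plin2 and Car6 moved the other way, to -1.05, -0.76, -0.98 and -2.09, and passed the threshold. Higher were nestin (Nes, 120.1, 115.0 and 100.5 CPM against 184, 160.2 and 167.1 CPM, log2 0.61), a filament of neural progenitors, the transcription factor Maf (95.8, 110.8 and 93.4 CPM against 205.7, 139.3 and 143.4 CPM, log2 0.71), Tmem98 (log2 1.14), Tmem53 (log2 1.28), the glutathione transferase Gstm1 (log2 0.67) and the matrix protein Spon2 (log2 1.15). Gstm1 and Gstm2 are close copies whose counts can be incomplete.

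Of 30 genes of the integrated stress response tested, 1 fell past the threshold (Ppp1r15a), 12 had an unadjusted p below 0.05 on the lower side and 0 on the higher side, and the median log2 fold change was -0.37, beside -0.01 over all genes. Their summed level was 4005, 4279 and 3798 CPM in vehicle and 3252, 3474 and 3228 CPM at 1.5 µM, without overlap. Atf4, the factor at the centre of the response, was at 717, 710 and 507 CPM in vehicle and at 396, 462 and 485 CPM at 1.5 µM (log2 -0.53, standard error 0.15, unadjusted p = 0.00232, FDR = 0.266). The pseudokinase Trib3 (log2 -0.76, FDR = 0.200), the cationic amino acid transporter Slc7a1 (log2 -0.53, FDR = 0.200) and Nupr1 (log2 -0.97, FDR = 0.307) did not pass the threshold either. Without A3, 3 members passed on the lower side (Atf4, Atf5 and Trib3, but not Ppp1r15a), 11 had an unadjusted p below 0.05, and the median was -0.40.

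None of 25 p53 genes and targets tested passed the threshold, 7 had an unadjusted p below 0.05 on the lower side and 0 on the higher side, and the median was -0.27. Mdm2, the ligase that degrades p53, was at 93.1, 97.1 and 145.5 CPM in vehicle and at 66.5, 67.4 and 71.3 CPM at 1.5 µM (FDR = 0.127). The cell cycle inhibitor Cdkn1a was at 633, 631 and 573 CPM in vehicle and at 465, 452 and 393 CPM at 1.5 µM (log2 -0.49, standard error 0.13, FDR = 0.199). The kinase Plk2 (log2 -0.85) and the secreted factor Gdf15 (log2 -1.19) had FDR values of 0.229 and 0.303. The summed level was 1454 to 1479 CPM in vehicle and 1029 to 1158 CPM at 1.5 µM, and the count of 7 was the same without A3. Without A3, Cdkn1a passed the threshold on the lower side (log2 -0.53, FDR = 0.0924), the log2 fold change of Mdm2 was -0.47 (FDR = 0.288), and the median was -0.205. Mitosis genes (28 tested) had 0 members with an unadjusted p below 0.05, and 4 on the higher side without A3. Of 32 DNA replication genes tested, 1 had such a p, on the lower side.

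Among early-response genes, 0 of 24 tested passed the threshold, 11 had an unadjusted p below 0.05 on the lower side and 2 on the higher side, and the median was -0.46. Egr1, a zinc finger factor of this first wave, was at 266.5, 237.4 and 475.3 CPM in vehicle and at 212.9, 195.3 and 174.2 CPM at 1.5 µM (log2 -0.76, standard error 0.20, FDR = 0.199). Ifrd1, Ier5 and Zfp36, which codes for a protein that destabilizes mRNA, had log2 fold changes of -0.69, -0.67 and -1.25 with FDR values of 0.152, 0.199 and 0.208. A3 was the highest vehicle library for Egr1, Ifrd1 and Ier5. Without A3, 5 members had an unadjusted p below 0.05 on the lower side, and the median was -0.34. On the higher side were Nfil3, a repressor of the clock (40.2, 31.7 and 29.4 CPM against 51.8, 51.1 and 53.8 CPM, FDR = 0.208), and Nr4a2 (log2 0.41, unadjusted p = 0.0247), a member outside the naming rule that was chosen after its values were seen.

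AP-1 factors are the products of a part of the early-response genes. Of 9 tested, 3 had an unadjusted p below 0.05, all on the lower side. Fos was at 41.3, 49.6 and 57.7 CPM in vehicle and at 30.9, 27.4 and 26.3 CPM at 1.5 µM (log2 -0.82, FDR = 0.199), Junb at 198.3, 162 and 255.6 CPM against 127.8, 140.6 and 126.3 CPM (log2 -0.65, FDR = 0.200), and Fosb at 23.7, 26.4 and 24.2 CPM against 11.1, 8.58 and 14.6 CPM (log2 -1.11, FDR = 0.252). The next by p was Jun, with a log2 fold change of -0.24 (standard error 0.14, unadjusted p = 0.102). Without A3, 4 of the 9 had an unadjusted p below 0.05. Of 15 MAP kinase feedback genes tested, 5 had an unadjusted p below 0.05 on the lower side, and the median was -0.60, the lowest of the lists with 9 or more members tested. Dusp1, a phosphatase of p38 and JNK, was at 111.2, 84.4 and 140.6 CPM in vehicle and at 56.2, 59.7 and 75.9 CPM at 1.5 µM (log2 -0.82, standard error 0.24, FDR = 0.252), and Dusp16, Dusp6 and Dusp4 lay between -0.60 and -0.73. The count of 5 was 3 without A2 or A8 and 2 without A3 or A9, and the median without A3 was -0.20. Klf6 was at 193.9, 201.6 and 198.2 CPM against 137.3, 127.1 and 136.3 CPM (FDR = 0.177) and Ereg, an EGF receptor ligand, at 71, 66 and 115.6 CPM against 44.7, 42.9 and 41.3 CPM (log2 -0.99, FDR = 0.199).

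Of 30 interferon-stimulated genes tested, 1 fell past the threshold (Mndal), 11 had an unadjusted p below 0.05 on the lower side and 1 on the higher side, and the median was -0.40. Oasl1, of the oligoadenylate synthetase family, was at 49.6 and 45.9 CPM in A1 and A2, at 8.51 CPM in A3, and at 13.5, 7.76 and 6.67 CPM at 1.5 µM (log2 -1.85, standard error 0.47, FDR = 0.199). Isg15, a ubiquitin-like modifier, was at 14.9, 22.7 and 14 CPM in vehicle and at 3.56, 7.35 and 8.34 CPM at 1.5 µM (log2 -1.41, FDR = 0.208), and Ifi44 (log2 -1.92, FDR = 0.241) did not overlap either. The summed level of the list was 1665 and 1691 CPM in A1 and A2, 1119 CPM in A3 and 1198 to 1414 CPM at 1.5 µM, so that A3 lay below all libraries of 1.5 µM. Without A3, 3 members passed (Mndal, Oasl1 and Ifi44), and 11 had an unadjusted p below 0.05 on the lower side.

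Acute-phase genes and chemokines went both ways. Of 22 tested, 1 rose past the threshold (Il1rn), and 5 had an unadjusted p below 0.05 on the higher side and 7 on the lower side. Saa3, a serum amyloid, was at 163.6, 162 and 287.5 CPM in vehicle and at 392.1, 298.3 and 414.3 CPM at 1.5 µM (log2 0.84, standard error 0.22, FDR = 0.200), and Tafa1 (Fam19a1 in the annotation used), a chemokine-like protein, at 17.1, 14.8 and 21.4 CPM against 36, 30.2 and 39.2 CPM (log2 0.96, FDR = 0.200). The members on the lower side rested on A3. Ccl2, which draws monocytes, was at 33 and 26.9 CPM in A1 and A2 and at 28.1, 32.7 and 35.0 CPM at 1.5 µM, but at 223.5 CPM in A3. Ccl7 and Cxcl1 had the same pattern (134.3 and 117.5 CPM in A3, at most 26.4 CPM in the other 5 libraries), and these 3 genes and Oasl1 were among the 5 largest changes of genes with a mean of at least 20 CPM, with log2 fold changes of -1.62, -1.70, -1.69 and -1.85. Ptgs2, the cyclooxygenase of inflammation, was at 67.2, 73.9 and 174.9 CPM in vehicle and at 50.3, 40 and 47.9 CPM at 1.5 µM (log2 -1.22, FDR = 0.229). Without A3, Saa3 passed the threshold (log2 1.18), 0 members had an unadjusted p below 0.05 on the lower side, and the log2 fold changes of Ccl2, Ccl7 and Cxcl1 were 0.10, -0.16 and 0.01.

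**Figure D3:**
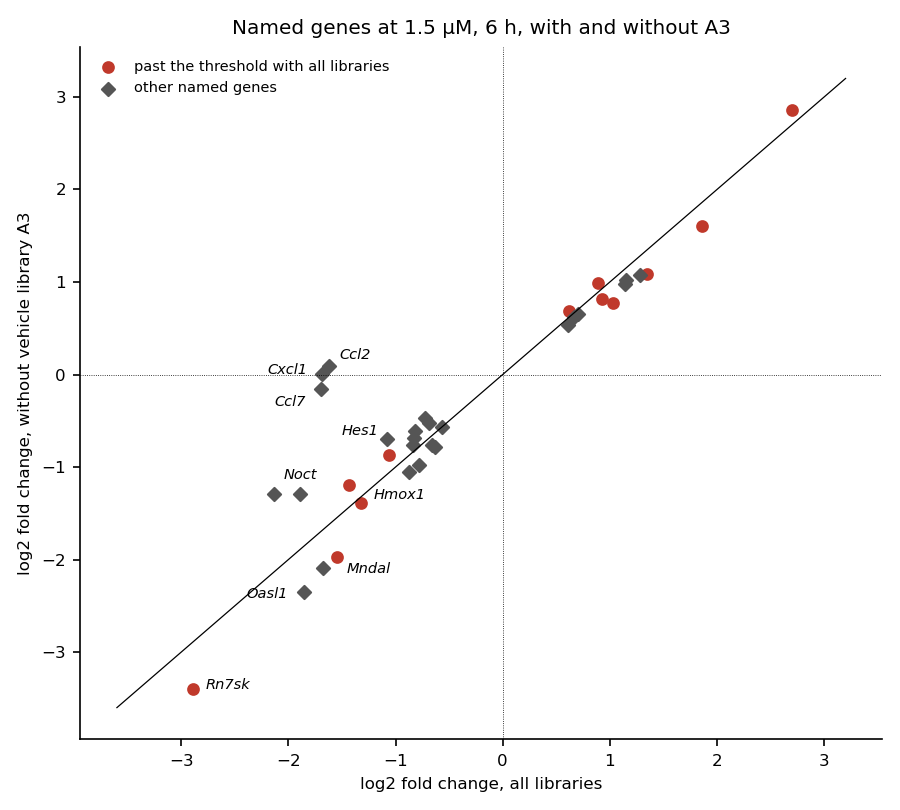
Log2 fold changes of the named genes at 1.5 µM CBD against vehicle at 6 h with all libraries (x axis) and without the vehicle library A3 (y axis), with genes past the threshold in red, the other named genes as grey diamonds, and the diagonal of equal values. Ccl2, Ccl7 and Cxcl1 lie between -1.62 and -1.70 with all libraries and near 0 without A3, while all 12 genes past the threshold keep their sign.

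Genes of the extracellular matrix were counted by class. Of 22 metalloproteinases and inhibitors tested, 2 rose past the threshold (Mmp3 and Timp1), 5 had an unadjusted p below 0.05 on the higher side and 0 on the lower side, and the median log2 fold change was 0.42. Mmp10, stromelysin 2, was at 9.36, 7.39 and 9.89 CPM in vehicle and at 11.5, 17.6 and 28.3 CPM at 1.5 µM (log2 1.083, unadjusted p = 0.00823, FDR = 0.424), and Adamts2, which trims procollagen, at 65.5, 49.1 and 50.3 CPM against 93.4, 72.7 and 80 CPM (log2 0.59, unadjusted p = 0.0106, FDR = 0.457). The summed level of the list was 4724 to 5307 CPM in vehicle and 5637 to 6775 CPM at 1.5 µM. The count of 5 was 3 without A7 or A9. Without A3, 3 members passed, with Mmp13, a collagenase, as the third (97.5 and 99.2 CPM in A1 and A2, 191.9 CPM in A3, and 200.2, 142.6 and 168.8 CPM at 1.5 µM).

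Of 35 matrix glycoproteins tested, 0 passed the threshold, 12 had an unadjusted p below 0.05 on the higher side and 1 on the lower side, and the median was 0.29. Sparc, a collagen-binding protein, was at 2185, 1977 and 1842 CPM in vehicle and at 2460, 2384 and 3110 CPM at 1.5 µM (log2 0.41, standard error 0.14, unadjusted p = 0.0065, FDR = 0.405), and the calcification inhibitor Mgp at 1485, 1439 and 1524 CPM against 2096, 1764 and 2599 CPM (log2 0.54, unadjusted p = 0.00782, FDR = 0.415), both chosen after their values were seen. By the rule, Spon2, Emilin1 (log2 0.89, FDR = 0.200) and Loxl1, an enzyme that joins elastin fibres (log2 0.60, FDR = 0.256), were higher, and Lrrc17 was lower (783, 876 and 572 CPM against 478, 551 and 412 CPM, log2 -0.63, FDR = 0.199). Without A3, 11 had an unadjusted p below 0.05 on the higher side, but 0 passed the threshold there. Lrrc17 passed on the lower side (log2 -0.785, FDR = 0.0113). Without A9, which held the highest summed level of the list, 7 were on the higher side. Of 23 collagen chains tested, 1 was on each side, and the median was 0.10. Among integrins and laminins, the subunit Itga1 was higher (log2 1.27, FDR = 0.252) and Itga6 and Lamc1 were lower (log2 -0.59 and -0.57, FDR = 0.199 and 0.200), with 3 of 22 on the higher side and 2 on the lower side.

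Genes of the oxidative stress response did not move as 1 group. Of 30 NRF2 and iron genes tested, 1 fell past the threshold (Hmox1), 4 had an unadjusted p below 0.05 on the lower side and 3 on the higher side, and the median was -0.07. Sqstm1 was at 577, 693 and 502 CPM in vehicle and at 349, 400 and 371 CPM at 1.5 µM (FDR = 0.112), whereas Gstm1 was at 82.6, 78.6 and 73.3 CPM in vehicle and at 110, 124.6 and 136.3 CPM at 1.5 µM (FDR = 0.152). Of 19 peroxiredoxin and thioredoxin genes tested, 3 had an unadjusted p below 0.05, all on the higher side: Prdx5 (log2 0.44, FDR = 0.208), Prdx4 (log2 0.44, FDR = 0.280) and Prdx2 (log2 0.31, FDR = 0.562). Of 20 heat shock genes tested, 5 were on the lower side and 0 on the higher side, with a median of -0.27. Hspa1a and Hspa1b, close copies that code for the inducible Hsp70, were at 41.2 and 95.3 CPM in A3 and at 1.58 to 23.3 CPM in the other 5 libraries, and the count of 5 was 3 without A8 or A9 and 2 without A3.

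Further lists were counted in the same way. Of 12 NF-kB subunits and inhibitors tested, 3 had an unadjusted p below 0.05 on the lower side and 0 on the higher side. Their median was -0.12, and the count of 3 was 1 without A3 and 0 without A7. Of 12 Krüppel-like factors tested, 2 were on the lower side and 0 on the higher side, with a median of -0.34. Of 26 hypoxia-inducible genes tested, 2 had an unadjusted p below 0.05 on the higher side, the glycolytic regulator Pfkfb4 (4.41, 2.64 and 4.67 CPM against 9.1, 13.9 and 11.3 CPM, log2 1.50, FDR = 0.199) and the cytokine Mif (log2 0.51, FDR = 0.200), and 3 on the lower side, with Ndrg1 first by p. Of 31 genes of lipid droplets and fatty acid oxidation, 3 were on each side, with Plin2 lower and the thiolase Acaa2 higher (log2 0.58, FDR = 0.209). Chka was the member of 15 phospholipid synthesis genes with an unadjusted p below 0.05. Of 77 ribosomal protein genes tested, 6 were on the higher side and 3 on the lower side, with Rpl28 first (300.7, 311.8 and 306.4 CPM against 529, 391 and 402.2 CPM, log2 0.52, FDR = 0.200), and many of them have copies among pseudogenes. Without A3, 23 of the 77 were on the higher side and 6 on the lower side. Of 8 proteins of the mitochondrial genome tested, 0 had an unadjusted p below 0.05, and of 36 nuclear subunits of complex I 3 did, all on the higher side.

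Of 19 nuclear and snoRNA-host long non-coding RNAs tested, 2 fell past the threshold (Zfas1 and Rn7sk), 7 had an unadjusted p below 0.05 on the lower side and 3 on the higher side, and the median was -0.37. Snhg1 and Gas5, hosts of small nucleolar RNAs like Zfas1, were at 182.3, 187.3 and 272.1 CPM against 143.2, 134 and 153.8 CPM (log2 -0.58, FDR = 0.208) and at 218.6, 222.7 and 179.6 CPM against 163.4, 156.5 and 140.9 CPM (log2 -0.43, FDR = 0.350). Kcnq1ot1, an antisense RNA of an imprinted locus, was at 53.4, 81.8 and 33.5 CPM against 25.3, 29 and 28.3 CPM (log2 -1.003, FDR = 0.200). Of the other 10 tested genes of the 7SK and P-TEFb list, 0 had an unadjusted p below 0.05: the kinase Cdk9 had a log2 fold change of -0.81 (standard error 0.49), and Larp7 and Hexim1, which bind 7SK, had 0.11 and 0.09 (standard errors 0.18 and 0.22). Without A3, 3 long non-coding RNAs passed, with Kcnq1ot1 as the third, and 5 were on the lower side.

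Of 25 endocannabinoid genes and proposed CBD targets, 12 could be tested, and 0 had an unadjusted p below 0.05. The cannabinoid receptors Cnr1 and Cnr2, the receptors Gpr55 and Htr1a, and the channels Trpv1 and Trpm8 had 0 reads in the 6 libraries, which allows a level of up to 0.203 CPM. Abhd12 and Abhd6, which degrade 2-arachidonoylglycerol, were at 44.7 and 15.1 CPM in vehicle and at 54.1 and 20.3 CPM at 1.5 µM, with log2 fold changes of 0.28 (standard error 0.17) and 0.42 (standard error 0.29). Napepld and Fabp5 had 0.98 (standard error 0.62) and 0.33 (standard error 0.25). Within these errors a change was not detectable at this depth.

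**Figure D4:**
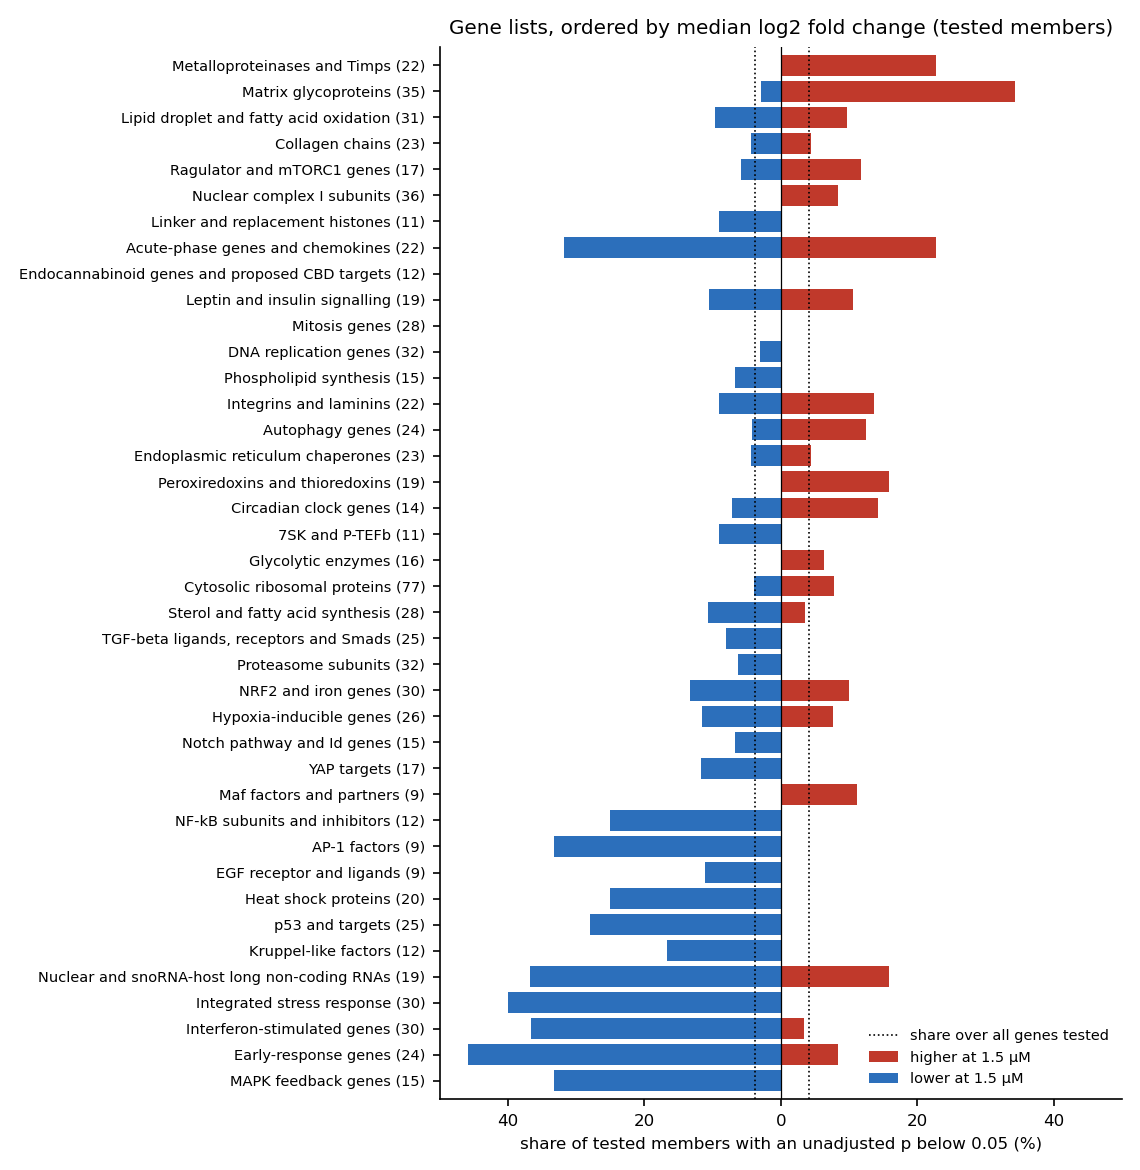
Share of the tested members of each gene list (number in brackets, lists with at least 9 tested) that had an unadjusted p below 0.05 at 1.5 µM CBD against vehicle at 6 h, to the right for members higher with CBD and to the left for lower ones, ordered by median log2 fold change. Dotted lines give the share over all genes tested (4.07% higher, 3.84% lower). MAP kinase feedback, early-response, interferon and stress response genes stand at the bottom, and metalloproteinases and matrix glycoproteins at the top.

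The question whether 1.5 µM differed from the other doses was put to a contrast of 1.5 µM against the mean of 0.325, 0.75 and 3 µM at 6 h, which uses no vehicle library. Of 12012 genes, 0 passed the threshold (0%), with edgeR and with DESeq2, and 306 (2.55%) and 274 had an unadjusted p below 0.05. Against each dose alone, 0 genes passed as well, with 251, 471 and 493 genes at an unadjusted p below 0.05 for 0.325, 0.75 and 3 µM. A p that misses the threshold does not show that the doses act alike. Chka had a log2 difference of -0.59 (standard error 0.16) between 1.5 µM and the mean of the other doses, with an unadjusted p of 0.00117. Zfas1 was at 69 ± 4.05 CPM at 0.325 µM, 74.7 ± 4.91 CPM at 0.75 µM, 50.4 ± 2.36 CPM at 1.5 µM and 60.4 ± 10.6 CPM at 3 µM (SD, n = 3), a log2 difference of -0.43 from the mean of the others (unadjusted p = 0.00597).

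The 4 doses were compared with the same 3 vehicle libraries, so that their values are given side by side without a count of shared genes. Against vehicle, Ppp1r15a had log2 fold changes of -1.60, -1.52, -1.43 and -1.74 from the lowest to the highest dose, with standard errors near 0.28. Hmox1 had -1.44, -0.47, -1.32 and -1.53, so that 0.75 µM stood nearest to 0, and Mmp3 had 0.74, 1.02, 0.89 and 0.64. Armcx3 had 1.01, 1.39, 1.86 and 1.24, with its highest value at 1.5 µM, and a log2 difference of 0.65 from the mean of the other doses (unadjusted p = 0.0208).

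**Figure D5:**
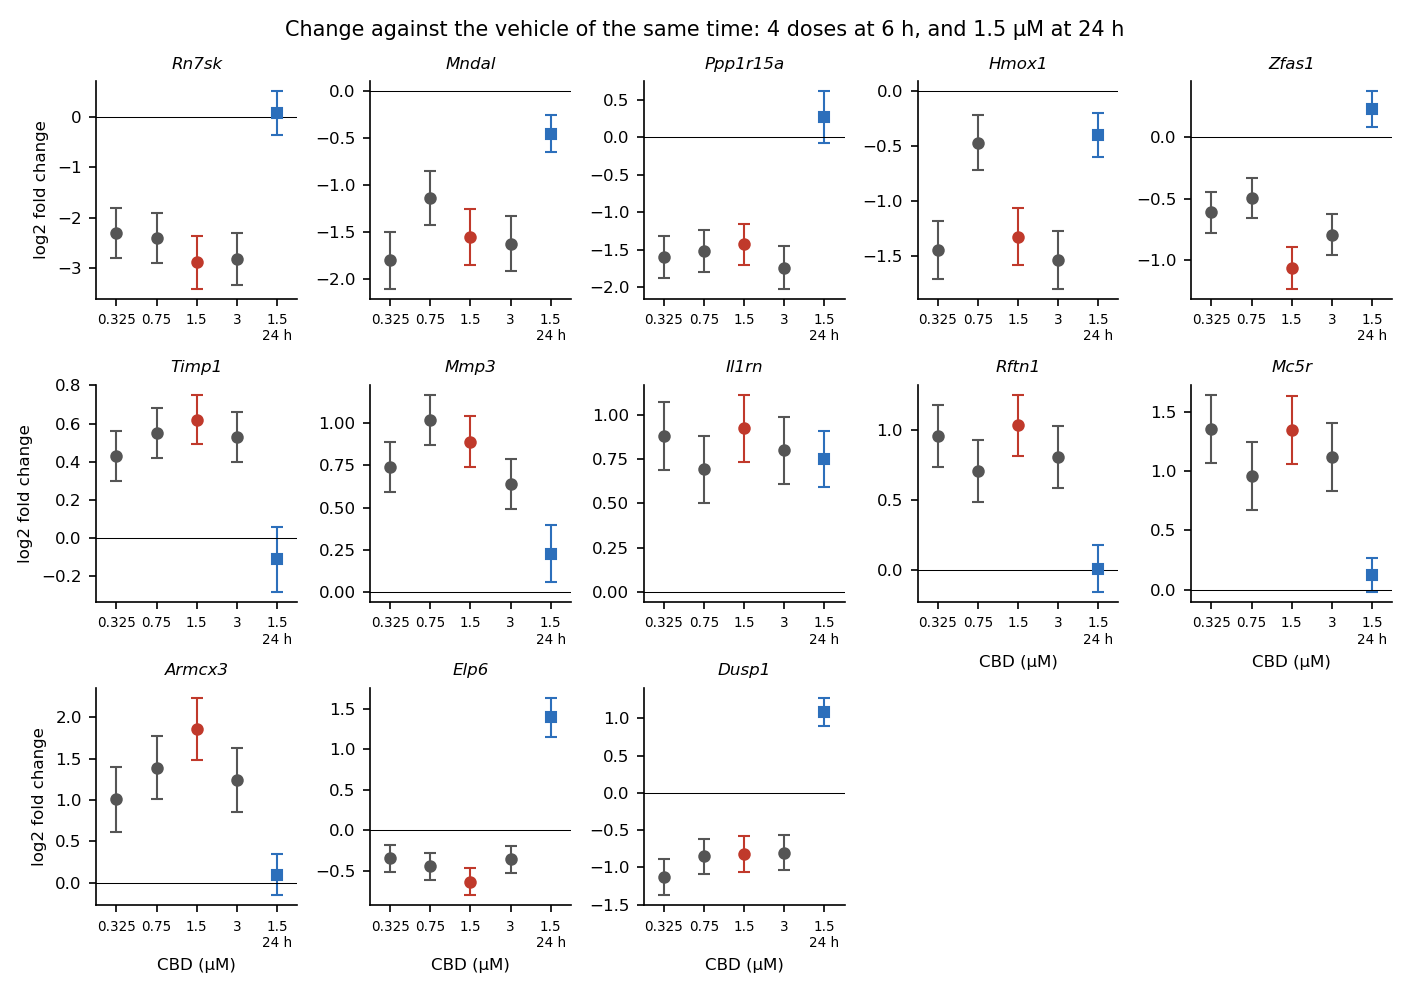
Log2 fold change against the vehicle of the same time (y axis, with standard error bars) of the 11 named genes past the threshold and of Elp6 and Dusp1, for 0.325, 0.75, 1.5 (red) and 3 µM CBD at 6 h and for 1.5 µM at 24 h (blue squares). All doses at 6 h share the vehicle libraries. At 24 h Il1rn is the gene past the threshold whose value (0.75) is nearest to that at 6 h (0.92).

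Whether the change at 1.5 µM differed between times was tested with the interaction of treatment and time over all 30 libraries. Of 12790 genes, 3 passed the threshold (0.0235%), all with a change that was more positive at 24 h than at 6 h. Elp6, a subunit of the Elongator complex that modifies tRNA, was at 179, 166.7 and 123.3 CPM in vehicle and at 102.1, 106.2 and 92.5 CPM at 1.5 µM after 6 h. This change did not pass the threshold at 6 h (log2 -0.63, standard error 0.17, FDR = 0.200). After 24 h it was at 28, 28 and 34.3 CPM in vehicle and at 83.4, 67.2 and 85.0 CPM at 1.5 µM. The groups did not overlap at either time and stood in opposite order, and the log2 change at 24 h minus that at 6 h was 2.02 (standard error 0.31, edgeR FDR = 0.00147). The vehicle level itself was lower at 24 h, and of the other 5 Elongator subunits tested 0 had an unadjusted p below 0.05 at 6 h. At 24 h Elp6 was at 26.7 ± 5.3 CPM with 0.325 µM CBD, beside 30.1 ± 3.64 CPM in vehicle (SD, n = 3). With 0.75 µM it was at 76.6 ± 15 CPM and with 3 µM at 114.1 ± 57.6 CPM. The higher level at 24 h was thus not seen at the lowest dose, and the cause was not tested.

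Dusp1 was at 49.1, 41.2 and 41.2 CPM in vehicle and at 109.5, 107.4 and 66.6 CPM at 1.5 µM after 24 h, above vehicle in all 3 libraries, whereas it was below vehicle in all 3 after 6 h. The log2 difference between times was 1.92 (standard error 0.32, FDR = 0.00436). Zfas1 was at 105.2, 96.2 and 113.6 CPM in vehicle and at 120.3, 113.6 and 133 CPM at 1.5 µM after 24 h, a log2 fold change of 0.22 (FDR = 0.781), and its log2 difference between times was 1.29 (standard error 0.22, FDR = 0.00436). For the other genes past the threshold at 6 h, the FDR of this test lay between 0.188 and 0.928. Their log2 fold changes at 24 h lay between -0.45 (Mndal) and 0.75 (Il1rn), of which 0 passed the threshold at 24 h. Vehicle levels differed between times as well. Ppp1r15a had means of 33.7 CPM in vehicle and 12.6 CPM at 1.5 µM after 6 h, and of 13 and 15.8 CPM after 24 h. Mndal had 116.8 and 39.1 CPM, then 43.5 and 32 CPM. Armcx3 had 5.15 and 18.1 CPM, then 19.2 and 20.5 CPM. The vehicle mean of Timp1 moved away from that at 1.5 µM after 6 h (747.7 to 625.2 CPM, against 1150 CPM). That of Zfas1 hardly changed (104.4 and 105 CPM, against 50.4 CPM), and that of Mc5r rose past it (25.7 to 141.7 CPM, against 63.8 CPM). The cause was not tested.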

How the data were processed

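Gene counts of 30 libraries (10 groups of 3) were deposited. Per the labels and the study's methods, the authors sequenced 3' tags of mRNA (QuantSeq), trimmed reads with Flexbar, mapped them to GRCm39 with STAR 2.7.5c and counted reads per Ensembl gene with HTSeq 1.99.2. The deposited counts are whole numbers without normalization, and 1 value per gene stands for reads near the 3' end, so that genes with overlapping ends can share reads. Use of strand in the counting is not given in the sources used here.

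The 15 libraries of 6 h were fitted together in edgeR 4.0.16 (R 4.3.3, filterByExpr, TMM normalization, quasi-likelihood F-test, Benjamini-Hochberg adjustment, FDR below 0.1), with 1 coefficient per group and no covariate, and all 30 libraries for the test between times. CPM is counts per 1e6 reads on genes, with TMM factors. A prior count of 2 was used for the log2 CPM behind the SD of log2 differences between libraries, and log2 fold changes are those of the edgeR fit. The common biological coefficient of variation was 0.179. Libraries held 1839621 to 3574833 reads on genes in the 6 libraries compared, and 3 reads over these 6 stand for 0.203 CPM. The limits given by reads cover counting error only. The genes named were those past the threshold, the next by p up to 30 genes, up to 4 members of each list by p, up to 10 genes past the threshold in the dose and time tests, and the 5 largest changes at a mean of at least 20 CPM. Members and gene lists were chosen with earlier results of these data known. DESeq2 1.42.0, RLE factors, other filters, a covariate, other sets of libraries and leaving out each library were tried as alternatives. Leaving out each library for the list counts was added after seeing the data. GENCODE M21 (GRCm38, older than the build of the counts) gave symbols and positions for 51948 of 56941 genes, and Rn7sk was named from the study's supplementary annotation. The fits were tested on simulated data.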

Additional observations from a re-analysis of the deposited data

Results flagged for a closer look

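In total, 3 genes stood out because their change at 1.5 µM differed between times in the interaction test of edgeR over all 30 libraries. The log2 change at 24 h minus that at 6 h was 2.02 for Elp6, 1.92 for Dusp1 and 1.29 for Zfas1. Elp6 and Dusp1 were lower than vehicle in 3 of 3 libraries at 6 h and higher in 3 of 3 at 24 h, and their change passed the threshold at 24 h (FDR = 0.016 for both) but not at 6 h (FDR = 0.200 and 0.252). With 0.325 µM CBD at 24 h, however, the mean of Elp6 was 26.7 CPM, beside 30.1 CPM in vehicle.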

How the results depend on the processing

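The 12 genes past the threshold at 6 h became 6 at an FDR below 0.05, 56 with DESeq2 (26 higher, 30 lower, 8 of the 12 among them), 106 with no filter on low counts, 154 with a covariate for the percentage of reads that fell outside genes (83 higher, 71 lower), 0 with only the 6 libraries compared (664 genes at an unadjusted p below 0.05) and 73 with all 30 libraries in 1 fit. DESeq2 returned no FDR for Rn7sk, Ppp1r15a, Armcx3 and the gene without a symbol. Its log2 fold changes for them were -2.92, -1.44, 1.87 and 2.75. Leaving out single libraries gave 0 to 50 genes, and 41 of the 50 without A3 were lower. With RLE factors and without mitochondrial genes the same 12 genes passed. With at least 10 counts in every library the count was 12 as well, but 10 of these were among the first 12. That filter left out Rn7sk and the gene without a symbol, and Ndrg1 (FDR = 0.0988) and Nes (FDR = 0.0956) passed in their place. The contrast of 1.5 µM with the other doses gave 0 genes under every alternative run. The 3 genes that differed between times became 20 with DESeq2, 54 with no filter and 5 with the covariate, and 3 to 21 without single libraries (21 without A1, 7 without A2, 9 without A3, 5 without the first vehicle library of 24 h), with Elp6, Dusp1 and Zfas1 among them in each. The cause of these shifts was not tested. Without A3, the log2 fold change of Cxcl1 turned from -1.69 to 0.00662 and that of Ccl2 from -1.62 to 0.095, the highest values without single libraries, of which the lowest were -2.11 and -2.04, both without A2. Where 1 library is left out, the group of the remaining 2 is assumed to vary like the other groups. Low counts limit the precision of Rn7sk, Armcx3 and the gene without a symbol. No paired analysis was possible because the labels number the libraries in 1 run over all groups, and the replicate numbers 1 to 3 used here follow that order and pair nothing.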

Other observations

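Without A3, 50 genes passed the threshold, of which 7 were among the 12 with all libraries. The following were chosen after their values were seen. Bc1, a small non-coding RNA of neurons, had a log2 fold change of -0.74 (edgeR FDR = 0.018) without A3 and of -0.56 (FDR = 0.255) with all libraries, and the mitochondrial aldehyde dehydrogenase Aldh2 -0.61 (FDR = 0.0874) and -0.37 (FDR = 0.645). The mitochondrial tRNA genes mt-Ta, mt-Tc, mt-Tq and mt-Tm had log2 values of -2.33, -0.84, -0.81 and -1.23 without A3, and of -1.84, -0.41, -0.57 and -0.73 with all libraries (FDR from 0.338 to 0.808). On the higher side were the lipid phosphatase Plpp3 (log2 0.77, FDR = 0.0667), the mitotic activator Cdc20 (log2 1.05, FDR = 0.0874) and the kinase Nuak2 (log2 1.44, FDR = 0.0924). With all libraries these 3 had log2 values of 0.40, 0.53 and 1.07 and FDR values of 0.656, 0.640 and 0.229.

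Among lists not described so far, 19 leptin and insulin signalling genes were tested. Of these, 2 had an unadjusted p below 0.05 on the higher side and 2 on the lower side, and the median was 0.04. Stat3 (log2 0.43, unadjusted p = 0.00814) and Socs2 (log2 0.38) were higher and Socs3, an inhibitor of leptin signalling, was lower (log2 -0.82, unadjusted p = 0.018). Their FDR values were 0.423, 0.562 and 0.522 with all libraries. Of 28 genes of sterol and fatty acid synthesis, 1 had an unadjusted p below 0.05 on the higher side (Scd1, log2 0.45) and 3 on the lower side (Srebf2, Sc5d and Msmo1, log2 -0.42, -0.48 and -0.32).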
